A study of Rattus norvegicus with 12 samples.

Results

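The loci described here are the shortest units in an assembly of hippocampal transcripts: assembled genes whose locus spans less than 600 bp from start to end. A locus entered where the authors' table marked its entry as tested and where it lay outside chromosome 20 between 1000000 and 5500000. This gave 823 of the 42839 tested entries of the table. Each of the 823 entries was the single tested entry of its own locus, so no member shares a locus with another. The spans ran from 103 to 598 bp with a median of 404 bp. Of 959 entries under 600 bp outside the chromosome 20 region, 136 were left untested by the authors, all with a mean of at most 0.78 FPKM and a span of at least 331 bp.

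The hippocampi came from male Sprague-Dawley rats of 8 weeks, all of which had their adrenal glands removed. In one group 6 rats received corticosterone at 300 µg/kg, and in the other group 6 rats received vehicle, and tissue was taken 1 h later. Adrenalectomy is shared by both groups, so the vehicle rats are hormone-depleted animals and not intact ones. The sample titles name corticosterone while the source names of the treated rats say cortisone, and the titles are followed here. The table holds 1 pooled value per group, so the spread between animals is unknown and no SD is given. No entry carries a gene symbol, so the tissue could not be checked against marker genes and the loci are named by their position.

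Corticosterone is the main glucocorticoid of the rat. It binds the glucocorticoid and mineralocorticoid receptors, which act as ligand-activated transcription factors and are abundant in the hippocampus. An assembled locus this short can be a small structural RNA such as a small nuclear or nucleolar RNA, a processed pseudogene, a repeat, or a fragment of a longer transcript that the assembler did not join. FPKM, the unit of the table, divides the fragments of a transcript by its length and by the depth of the library. At the same FPKM a shorter transcript is therefore backed by fewer fragments.

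In FPKM, short loci reached higher levels than longer ones, and the level climbed steeply as the span shrank. FPKM is per length and unstable for short transcripts, so these levels are not read as numbers of RNA molecules. Where a locus is called abundant below, a high FPKM is meant. As the mean of both groups, the median level was 5.05 FPKM over the 823 short entries and 2.14 FPKM over 41885 entries of longer loci. The median level of the 111 entries of 100 to under 200 bp was 43.7 FPKM. It was 9.55 FPKM for the 143 entries of 200 to under 300 bp, 4.35 FPKM for the 152 entries of 300 to under 400 bp and 2.81 FPKM for the 190 entries of 400 to under 500 bp. The 227 entries of 500 to under 600 bp had a median of 1.58 FPKM, below that of the longer loci.

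The lower edge of the levels moved with the span as well. No entry of 100 to under 200 bp lay below 9.88 FPKM, whereas the lowest entry of 500 to under 600 bp had 0.57 FPKM. The authors' testing step removed no entry under 300 bp, so this edge was already present in the assembled entries of that size. Across the 823 entries Spearman's rho between span and mean FPKM was -0.57, and across the 712 entries of 200 bp or more it was -0.42. The entries share the same libraries and both quantities involve length, so these are descriptions.

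**Figure D1:**
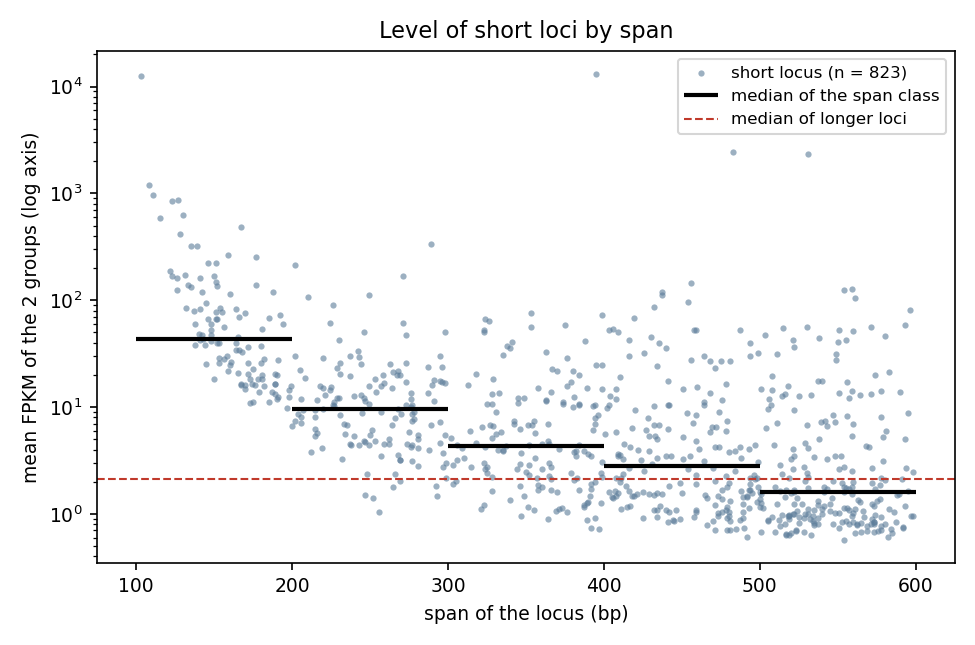
Mean FPKM of both groups (log axis) against the span of the locus in bp, with 1 point per short locus (n = 823), a black line at the median of each span class and a dashed line at the median of longer loci. The class medians descend from 43.7 FPKM at 100 to under 200 bp to 1.58 FPKM at 500 to under 600 bp, and a few loci above 1000 FPKM stand apart.

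Entries with a very high FPKM were more frequent among the short loci than among longer ones. A mean of at least 50 FPKM was reached by 94 of 823 short entries, or 11.4%, and by 594 of the longer entries, or 1.42%. Longer loci often hold several entries, and with the most abundant entry of each alone their share was 3.62%. In the class of 100 to under 200 bp the share was 45.9%, and in the other classes it lay between 4.85% and 6.99%. Short loci made up 1.93% of the tested entries outside the chromosome 20 region. They were 8 of its 12 most abundant entries, 21 of the top 100 and 70 of the top 500. Summed FPKM of the short loci was 17.3% of the total with corticosterone and 17.0% with vehicle.

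A handful of loci carried most of that sum. The leading 2 loci held 50.7% of the summed FPKM of all short loci with corticosterone and 48.9% with vehicle. Without the leading 4 loci, the short entries held 7.75% of the remaining total with corticosterone and 7.86% with vehicle. These 4 loci alone lay above 1255.5 FPKM, the highest mean of a longer tested entry outside the chromosome 20 region.

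The most abundant locus lay on chromosome 15 at 27738880 to 27739275 and spans 395 bp. It had 13773 FPKM with corticosterone and 12444 FPKM with vehicle, a ratio of 1.11. A longer locus begins 92 bp away, at 27739367 to 27749638, and its leading entry had 4.33 and 4.21 FPKM. The level thus differed 3069.8-fold between neighbours whose gap is shorter than either locus. The next locus, on chromosome 1 at 187679891 to 187679994, has the smallest span of all members, 103 bp. It had 12723 FPKM with corticosterone and 12229 FPKM with vehicle, and no other assembled locus lay within 75979 bp.

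The third and the fourth locus were close to equal between the groups. On chromosome 10 at 74742569 to 74743052 the values were 2408 FPKM with corticosterone and 2447 FPKM with vehicle. On chromosome 12 at 46862814 to 46863345 they were 2304 and 2379 FPKM. These 2 loci span 483 and 531 bp, so not all of the extreme levels belong to the smallest spans. In the authors' deposited table the 4 leading loci had unadjusted p-values between 0.181 and 0.891 and a q of 0.999 each.

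The remaining 8 of the 12 most abundant short loci all span less than 170 bp, and their ratios between groups ran from 1.02 to 1.81. The locus on chromosome 8 at 3900906 to 3901014 had 846.1 FPKM with corticosterone and 1530 FPKM with vehicle, 1.81-fold lower with the hormone, with an unadjusted p of 0.136 by the authors' deposited table. A short neighbour that begins 215 bp downstream in coordinate order, at 3901229 to 3901380, had 147.6 and 151.5 FPKM. The large gap between groups at the first locus was therefore not seen at the second. On chromosome 2 at 210241247 to 210241358 the values were 1053 FPKM with corticosterone and 890.8 FPKM with vehicle. On chromosome 14 at 49507914 to 49508041 they were 925.7 and 799.6 FPKM, and on chromosome 6 at 95062091 to 95062214 they were 933.6 and 759.7 FPKM. The other 4 loci, on chromosomes 19, 1 and X, had ratios of at most 1.22. Of the 12 loci, 8 had the higher value with corticosterone and 4 with vehicle, and none was called different by the authors.

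**Figure D2:**
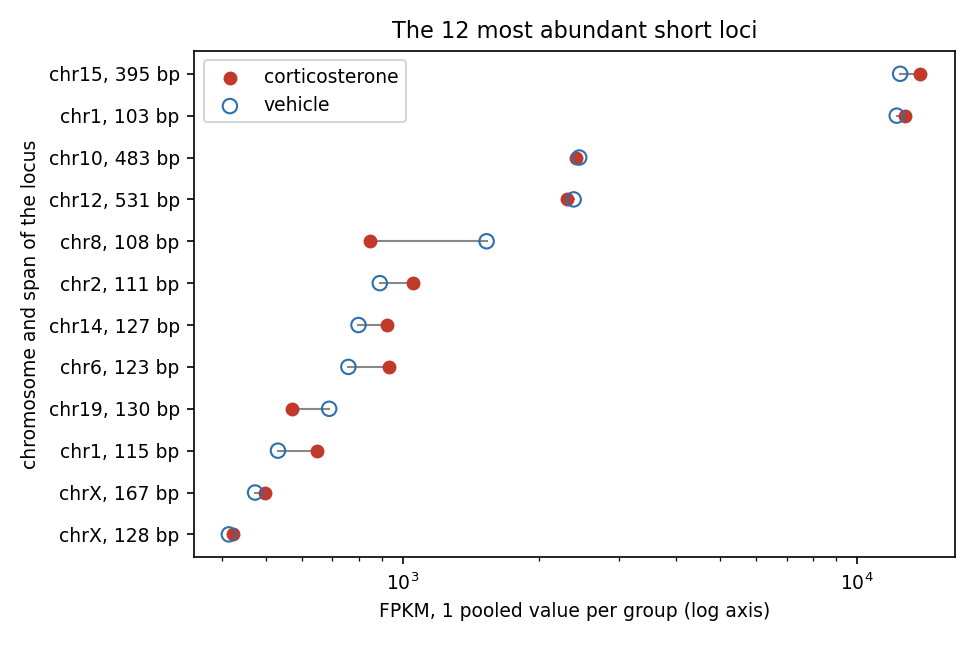
Pooled FPKM (log axis) of the 12 short loci with the highest mean, with filled points for corticosterone and open circles for vehicle, each row labelled by chromosome and span in bp. The 2 leading loci lie at 12229 FPKM or higher in both groups, and the widest separation is that of the 108 bp locus on chromosome 8, at 846.1 and 1530 FPKM.

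Almost no short locus was called different after corticosterone. The authors' q was 0.05 or less for 1 of 823 short entries, or 0.122%. Over all tested entries the same rule called 148 of 42839, or 0.345%, and among the entries of longer loci 146 of 41885, or 0.349%. The single call was lower with corticosterone. Calls lower with corticosterone made up 0.0747% of all tested entries and calls higher with corticosterone 0.271%. At the background share 2.84 of the 823 entries would be called, so the count of 1 is not read as a difference from other loci.

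The called locus lies on chromosome 1 at 36952165 to 36952536, spans 371 bp and is the entry XLOC_002323. The table lists it at 0 with corticosterone and at 2.22 FPKM with vehicle, so no fold is given. Its p of 5e-05 and q of 0.0165 equal the smallest p and q of the authors' deposited table. Other entries share these smallest values, so they do not rank this locus first. It is also the only member of the 823 listed at 0 in a group. A longer locus begins 1471 bp away, at 36954007 to 36957411. Its leading entry had 20.05 FPKM with corticosterone and 17.9 FPKM with vehicle and was not called. The authors' list of 122 different transcripts holds 1 transcript with the coordinates of a member. It is the transcript of XLOC_002323, with the lower of the list's score codes. That list comes from the same run, so it adds no independent support.

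By the unadjusted p the short loci were close to the background too. An unadjusted p of 0.05 or less stood at 30 of the 823 entries in the authors' deposited table, or 3.65%, against 2.92% of all tested entries. Of these 30 entries, 18 had the higher value with corticosterone and 12 with vehicle. The called locus is among those 12, so 29 of the 30 entries were uncalled. The smallest q of an uncalled member was 0.103, at the entry XLOC_056140 on chromosome 9 at 71329213 to 71329602. This 389 bp locus had 18.8 FPKM with corticosterone and 11.6 FPKM with vehicle, 1.62-fold higher, with a p of 0.00045 in the authors' deposited table. Its nearest longer locus, 15197 bp away, had 3.03 and 2.51 FPKM.

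Among uncalled members with a mean of at least 10 FPKM, the widest difference towards corticosterone was on chromosome 8 at 81920522 to 81920648. This 126 bp locus had 194.8 FPKM with corticosterone and 55.4 FPKM with vehicle, a 3.52-fold difference. The authors' deposited table gives it an unadjusted p of 0.022, which did not pass the adjustment (q = 0.999). A longer locus begins 426 bp away, at 81921074 to 81941553, and had 17.3 FPKM with corticosterone and 16.0 FPKM with vehicle. The short locus thus stood well above its neighbour in both groups, and the neighbour was nearly equal between them.

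The next values in that direction were smaller. On chromosome 17 at 87851151 to 87851299 a 148 bp locus had 66.2 FPKM with corticosterone and 39.1 FPKM with vehicle. A member 939 bp before it, at 87849842 to 87850212, also had the higher value with corticosterone, 24.1 against 19.2 FPKM. The loci on chromosome 4 at 117154389 to 117154561 (25.01 and 15.9 FPKM) and on chromosome 14 at 72379592 to 72379781 (19.4 and 13.1 FPKM) were 1.57-fold and 1.49-fold higher. On chromosome 17 at 7647086 to 7647221 an abundant 135 bp locus had 381.0 FPKM with corticosterone and 259.6 FPKM with vehicle, and its unadjusted p was 0.0189 by the authors' deposited table.

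In the other direction, the widest difference at a mean of at least 10 FPKM was 1.95-fold. It was found on chromosome 16 at 2061681 to 2061872, with 8.47 FPKM with corticosterone and 16.5 FPKM with vehicle. On chromosome 20 at 156733 to 157165, a 432 bp locus outside the excluded region, the values were 7.05 and 13.4 FPKM, where the authors' deposited table has p = 0.00635 and q = 0.670. The third was the 108 bp locus on chromosome 8 already described. On chromosome 1 at 72272686 to 72272828 the values were 35.9 and 57.8 FPKM, on chromosome 10 at 84562907 to 84563033 they were 122.9 and 197.6 FPKM, and on chromosome 9 at 8876428 to 8876613 they were 8.70 and 13.8 FPKM. Of these 6 loci with lower values after corticosterone, 5 span less than 200 bp, and none was called.

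**Figure D3:**
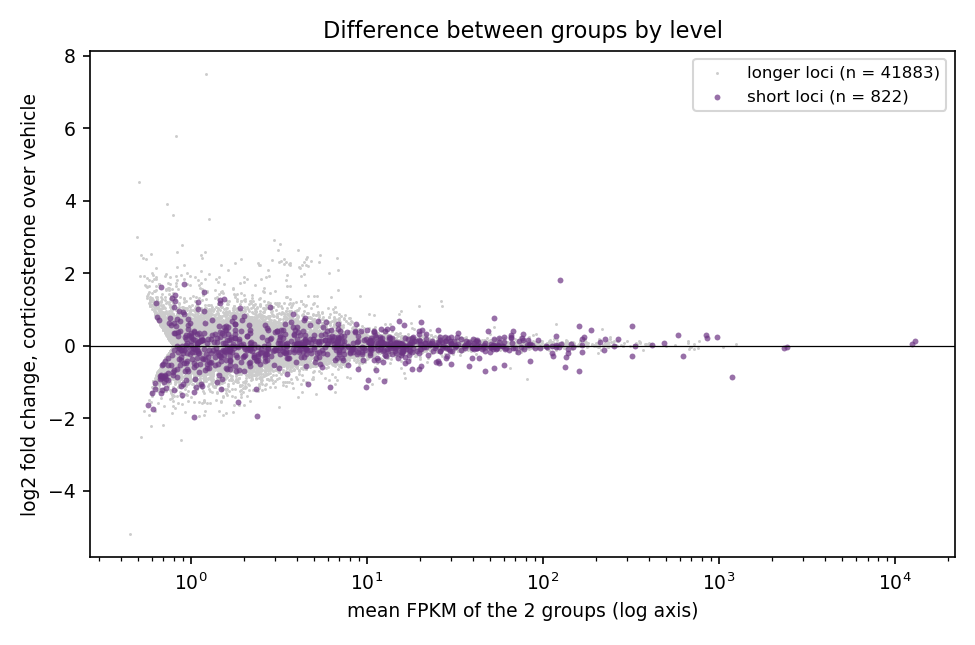
Log2 fold change of corticosterone over vehicle against the mean FPKM of both groups (log axis), with grey points for 41883 entries of longer loci and purple points for 822 short loci with both values above 0. The short loci stay within about the range of the longer ones at low levels, and the 126 bp locus on chromosome 8 at 125.1 FPKM stands alone at a log2 fold change of 1.81.

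Although few were called, short loci differed more between the groups than longer loci of the same level. Over 822 members with both values above 0, the median absolute log2 fold change was 0.19. Longer loci were weighted to the same distribution of mean FPKM, in 20 bins that each held 41 or 42 short entries, and gave 0.086. The ratio was 2.19. In all 20 bins the short loci had the larger median, by 1.40 to 3.81 times. Differences of 2-fold or more were found at 41 of the 822 short loci, or 4.99%, against 1.53% of all tested entries and 1.12% of the longer loci at matched level, a ratio of 4.46 to the last. Of the 41 loci, 16 were higher with corticosterone (1.95%, against 0.971% of all tested entries) and 25 were lower (3.04%, against 0.56%).

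The sparsest members weigh on these shares. The lowest bin, below 0.81 FPKM, held 12 of the 41 loci, and its entries could be tested through their higher group, so their differences are no support for the excess. With a mean of at least 1 FPKM, 22 of 726 short loci differed 2-fold or more, 9 higher and 13 lower with corticosterone, or 3.03% against 0.634% of the longer loci at matched level. With a pseudocount of 1 FPKM the shares were 0.365% and 0.165%. The median absolute log2 fold change with a mean of at least 1 FPKM was 0.172 for short loci and 0.077 for longer ones, a ratio of 2.24.

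The p-values gave a mixed account. At matched level, an unadjusted p of 0.05 or less was found at 3.53% of the short loci and 3.35% of the longer ones in the authors' deposited table. The median unadjusted p from the same table was lower for short loci, at 0.526 against 0.672. When each longer locus was represented by its most abundant entry, the longer share rose to 6.13% and the order turned. Among short loci that differed 2-fold or more, 12 of 41 had such a p, or 29.3%. Among the longer entries that did so, here not matched on level, 140 of 611 had one, or 22.9%. Most of the 41 differences were at low levels, since 38 had a mean below 5 FPKM. The 3 others were the 126 bp locus on chromosome 8, a 197 bp locus on chromosome 15 at 38029620 to 38029817 (6.17 FPKM with corticosterone, 13.6 FPKM with vehicle) and a 215 bp locus on chromosome 9 at 8630288 to 8630503 (3.85 and 8.49 FPKM). The last 2 were singled out after their values were seen.

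**Figure D4:**
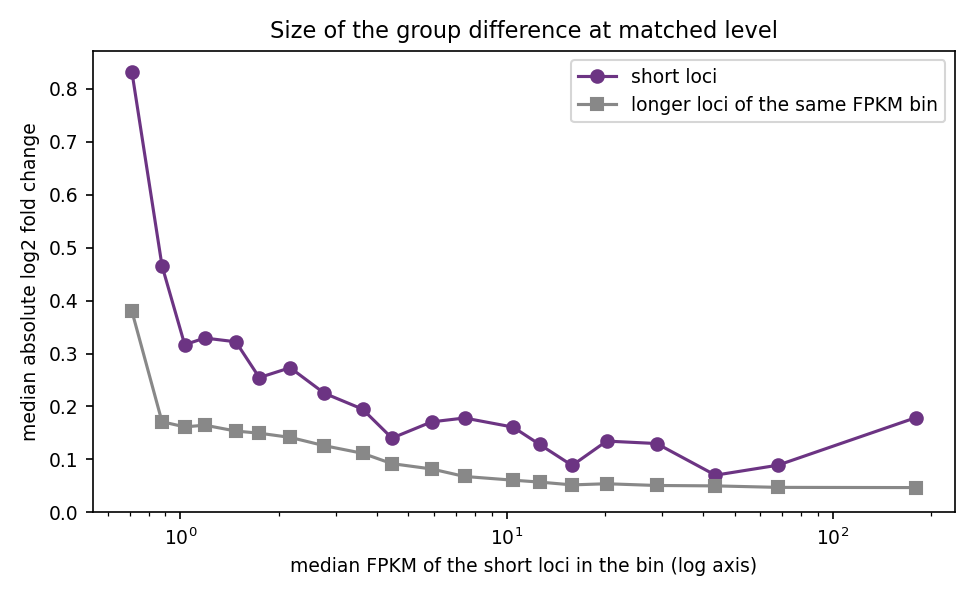
Median absolute log2 fold change of short loci (circles) and of longer loci in the same bin of mean FPKM (squares), against the median FPKM of the short loci in each of 20 bins (log axis). The short loci lie above the longer ones in every bin. The lowest bin, with a median of 0.83, holds mostly members that could be tested through their higher group.

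Below 400 bp the excess grew as the span fell. Matched on mean FPKM, the ratio of the median absolute log2 fold change to that of longer loci was 1.60 for spans of 500 to under 600 bp and 1.52 for 400 to under 500 bp. It was 2.00 for 300 to under 400 bp, 2.75 for 200 to under 300 bp and 4.52 for 100 to under 200 bp. Within fixed ranges of level, among loci with a single tested entry, the smallest span class also had the largest median. Between 5 and 20 FPKM, the median absolute log2 fold change was 0.23 for the 27 loci of 100 to under 200 bp, 0.19 for 75 loci of 200 to under 300 bp and 0.15 for 46 loci of 300 to under 400 bp. It was 0.096 and 0.092 in the 2 longest classes under 600 bp. The 78 loci of 600 to under 1000 bp had 0.11 and the 124 loci of 1000 to under 2000 bp had 0.066, so the limit of 600 bp marks no step.

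At higher levels the larger differences were those of the smallest loci. Between 20 and 100 FPKM, the 54 loci of 100 to under 200 bp had a median absolute log2 fold change of 0.20 and the 26 loci of 200 to under 300 bp had 0.099. The longer classes under 600 bp had between 0.032 and 0.063, and loci of 10000 to under 100000 bp had 0.049. Between 1 and 5 FPKM the medians ran from 0.52 for 37 loci of 200 to under 300 bp down to 0.20 for 97 loci of 500 to under 600 bp, and on to 0.087 for loci of 10000 to under 100000 bp.

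The product of mean FPKM and span in kb is a rough stand-in for the number of fragments behind a value, where the transcript fills its locus. Among the short loci its median rose from 0.863 at 500 to under 600 bp to 6.65 at 100 to under 200 bp. The stand-in is thus not free of span. Matched on mean FPKM with 1894 single-entry loci of 600 to under 2000 bp, the short loci had a 2.10 times larger median absolute log2 fold change. Matched on the product instead, over 811 short loci in the common range, the medians were 0.187 and 0.172, a ratio of 1.09. The comparison on the product was added after the values were seen. The number of fragments itself is not in the table, so its part in the result was not tested directly.

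**Figure D5:**
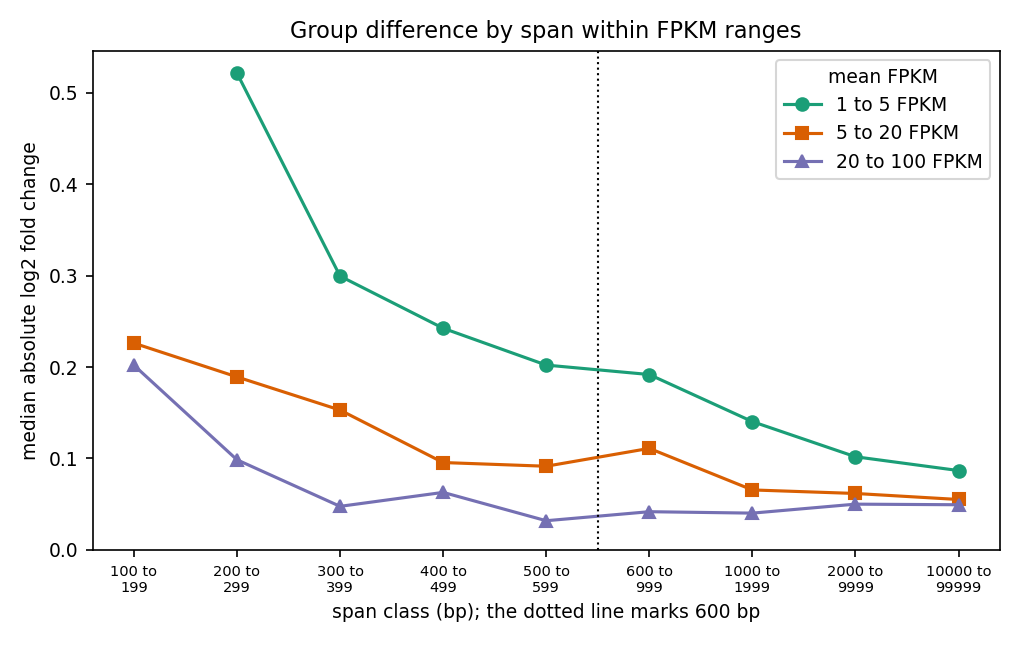
Median absolute log2 fold change by span class in bp for loci with a single tested entry, with 1 line for each range of mean FPKM. Each line is highest at its smallest span class, but the lines do not fall at every class. At 5 to 20 FPKM the median was 0.092 at 500 to under 600 bp and 0.11 at 600 to under 1000 bp. No clear step lies at the dotted line at 600 bp.

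The direction of the differences was mixed. Of the 822 members with both values above 0, 397 were higher with corticosterone and 425 lower, so 48.3% were higher. Among all tested entries 51.8% were higher, and among longer loci at matched level 56.7%. Below 3.24 FPKM, 131 of 329 short loci were higher, or 39.8%, against 48.9% of the longer entries in the same bins. Above that level the shares were 54.0% of 493 short loci and 57.4% of the longer entries. Here the longer entries were pooled over bins and not weighted to the short loci, so the gaps below and above 3.24 FPKM cannot be compared. Of the longer entries, 52.2% were higher in the lowest bin above that level and 76.0% in the highest bin. The share of short loci was below that of the longer entries in 18 of the 20 bins. By span, the class of 400 to under 500 bp stood apart, with 69 of 190 loci higher, or 36.3%, while the share in the other classes lay between 49.3% and 57.7%. In that class the share was 36.7% among 169 loci with a mean of at least 1 FPKM, so it did not rest on the sparsest loci. The class was singled out after the shares were seen. The classes on either side had 52.3% (300 to under 400 bp) and 49.3% (500 to under 600 bp), so the share did not follow the span.

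At the lowest levels the tested members are a selected set. Of 34 tested members at or below the highest mean of an untested one (0.78 FPKM), 27 were lower with corticosterone and 7 higher. The untested short entries leaned the same way, with 85 lower and 51 higher. An entry at such levels could be tested through its higher group, so a large difference among these 34 is no support for a response.

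Short loci lay somewhat farther from other assembled loci than longer ones did. Of the 814 members with another locus on their chromosome or scaffold, 349 had one within 1 kb, or 42.9%, and the median gap was 2391 bp. For longer loci the share within 1 kb was 45.5% and the median gap 1463 bp. At the other end, 14.3% of the short loci and 5.08% of the longer loci had no other locus within 100 kb. The smallest gap of a member was 50 bp.

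Members close to a longer locus were sparser than isolated ones. The 235 members within 1 kb of a longer locus had a median of 2.38 FPKM, and the 171 members more than 100 kb from one had a median of 12.9 FPKM. The spans of the 2 sets differed as well, with medians of 432 and 356 bp. The short locus had the higher level in 119 of the 235 neighbouring pairs, or 50.6%. Both loci differed in the same direction in 141 of the 235 pairs, or 60.0%. At 10 to 100 kb the share was 49.0% of 251 pairs and beyond 100 kb it was 47.95% of 171 pairs. Loci of 600 to under 2000 bp gave 55.3% within 1 kb and 62.7% at 1 to 10 kb, where the short loci gave 52.6%. A shared direction with the neighbour is therefore not set apart as a property of the short loci.

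Within 100 kb, 2 members had a nearest longer neighbour whose leading entry was called. Each longer locus stood here by its most abundant entry, and calls among its other entries were not examined. On chromosome 20 at 8102741 to 8103090 a 349 bp locus had 2.08 FPKM with corticosterone and 0.86 FPKM with vehicle. It lies 112 bp from the called locus at 8103202 to 8105037, which had 1.30 and 0.37 FPKM. The short locus was thus 2.41-fold higher with corticosterone, in the direction of its neighbour, but it was not called (p = 0.0752 in the authors' deposited table). On the scaffold chrUn_KL568465v1, a 559 bp locus at 82157 to 82716 had 5.63 and 5.15 FPKM. The called locus 9980 bp away, at 92696 to 106269, had 5.44 FPKM with corticosterone and 1.08 FPKM with vehicle, so the large difference there did not extend to the short locus.

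Some members lay in runs of short loci. There were 54 pairs of neighbouring short loci no more than 1 kb apart, which involved 103 of the 823 members. In 38 of the 54 pairs the shorter locus had the higher level, and the median ratio of the levels was 2.16. The widest step was on chromosome 18, where a 489 bp locus at 28625191 to 28625680 had 1.13 FPKM with corticosterone and 1.32 FPKM with vehicle. A 123 bp locus 156 bp further, at 28625836 to 28625959, had 157.0 and 177.6 FPKM, a ratio of levels of 136.2. Both loci of a pair differed in the same direction in 23 of the 54 pairs, 15 higher and 8 lower with corticosterone.

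A run of 3 members on chromosome 14 shows such steps between close neighbours. The 324 bp locus at 49507302 to 49507626 had 68.2 FPKM with corticosterone and 64.8 FPKM with vehicle. The 127 bp locus at 49507914 to 49508041, among the 12 most abundant, had 925.7 and 799.6 FPKM. The 202 bp locus at 49508174 to 49508376 had 221.0 and 204.1 FPKM. All 3 had slightly higher values with corticosterone, and the level followed the reverse order of the spans.

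Each of the placed chromosomes 1 to 20, X and Y held members. They made up 4.84% of the 16997 tested loci outside the chromosome 20 region. The share was highest on chromosome X, with 59 of 631 loci or 9.35%, and on chromosome 17, with 46 of 515 loci or 8.93%, if the Y chromosome with 1 of 6 loci is left aside. It was lowest on chromosome 7, with 27 of 1005 loci or 2.69%. The median level of the members was between 2.23 FPKM on chromosome 7 and 13.1 FPKM on chromosome 14 among the placed chromosomes. A further 13 members lay on scaffolds.

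The loci on either side of the length limit had levels below 5 FPKM, with 1 exception inside it. The longest members, on chromosomes 1 at 221993379 to 221993977 and 15 at 18416864 to 18417462, span 598 bp each. The first had 2.31 FPKM with corticosterone and 2.63 with vehicle, and the second had 1.11 and 0.81 FPKM. On chromosome 6 a 597 bp locus (22337948 to 22338545) had 1.00 and 0.89 FPKM. On chromosome 5 a 596 bp locus (159606402 to 159606998) was far more abundant, with 82.3 and 80.8 FPKM. Just outside, 3 loci of 600 bp on chromosomes X, 9 and 1 had 3.56 and 3.16 FPKM, 1.17 and 1.72 FPKM, and 0.90 and 0.44 FPKM, and a 601 bp locus on chromosome 2 had 3.90 and 3.34 FPKM.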

How the data were processed

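Hippocampal RNA of 12 rats was sequenced, 6 per group. The submitters' processing notes name Cuffdiff 2.2.1.3, Cufflinks 2.2.1.0, TopHat 0.9 and Bowtie2 0.6, without settings, and the build rn5. However, 106 entries sit on scaffolds named as in the later assembly rn6, so positions are printed as the table gives them. The RefSeq tables at hand are of another assembly and were not joined by position, so no sequence is printed. Per the file headers, the authors deposited FPKM values, 1 pooled value per group, with a log2 fold change, a p-value and a q-value. The deposited log2 fold change is vehicle over corticosterone and its sign was turned here. It matched the values within 0.001 in 42836 of 42836 tested entries with both values above 0. The test statistic, a score the authors deposited, was not used. The second deposited file gives a score code per transcript.

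No test was fitted here, because each group is 1 value, and p-values and q-values are the authors'. Calls are a q of 0.05 or less. Folds are ratios of the pooled values. Longer loci were weighted to the short loci over 20 bins of mean FPKM (Python 3.11.15, pandas 2.3.3, numpy 2.4.6). This step was tried on simulated differences with a planted spread and no planted direction, so the comparison of directions was not tried with a known answer. Read depth per sample is unknown, so no counting interval is given. Loci named singly are the called one, the 12 highest in level, the 6 widest uncalled differences each way at 10 FPKM or more, and 4 on each side of the length limit. Neighbours and pairs named beside them were chosen after their values were seen. The members and all comparisons were chosen with earlier results of these data known.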

Additional observations from a re-analysis of the deposited data

How the results depend on the processing

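The ratio of the median absolute log2 fold change to that of longer loci at matched mean FPKM, 2.19, stayed between 1.76 and 2.91 under every alternative that matched on FPKM. Matching on FPKM times span, added after seeing the data, gave 1.09. The corresponding ratio for 2-fold differences, 4.46, was 8.13 with spans below 400 bp, 1.59 with spans below 1000 bp, 7.67 with 1 entry per locus and 2.21 with a pseudocount of 1. The share of p-values of 0.05 or less turned from 1.05 times to 0.576 times that of longer loci with 1 entry per locus, where only the longer set changes. The share higher with corticosterone was 8.39 percentage points below that of longer loci (-8.39), -6.35 with spans below 400 bp and -4.06 with spans below 1000 bp, with the same sign in every alternative run. The share itself went from 48.3% to 53.3% below 400 bp and to 50% below 1000 bp, so whether most short loci were higher or lower depends on the limit. The 11.4% of short loci at 50 FPKM or more became 17.2% below 400 bp, 6.96% below 1000 bp, 6.04% without spans under 200 bp (chosen after seeing the data) and 5.35% at a threshold of 100 FPKM. The 1 call became 2, and the 1 listed transcript 2, with the chromosome 20 region kept. A q of 0.01 or less left 0 calls by the authors' Cuffdiff values, whose smallest q is 0.0165, while 30 members had an unadjusted p of 0.05 or less. No paired analysis was possible because the table pools the 6 rats of a group into a single value, and for the same reason no animal could be left out. Depth is unknown, so what the sparse loci could show is not bounded.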
